A study of Mus musculus with 41 samples.

Results

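The 7 genes described here, Siglech, Klra17, Cd7, Cd209d, Bst2, Lair1 and Pacsin1, are carried by plasmacytoid dendritic cells and were followed through mouse B cell development. They were taken by name, as all probe sets that the array annotation gives to one of these symbols alone, which were 10 of 45101 probe sets and 7 of 18193 genes. They were chosen by measured signals: earlier results of the same arrays had shown these genes higher in Hardy fraction A than in common lymphoid progenitors and lower again in fraction B. Levels in those populations, and in fraction C against B, are therefore a description with no test, and the 7 genes were tested only between fractions C, D, E and F. Genes outside the set were tested in every comparison.

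Plasmacytoid dendritic cells are bone marrow-derived dendritic cells that sense viral nucleic acids through endosomal Toll-like receptors and answer with type I interferon. Their identity rests on the E protein Tcf4 and on the factors Irf8 and Spib, and part of the lineage arises from lymphoid progenitors that also give B cells. Hardy fraction A is the earliest compartment of the classical pro-B scheme, and other cell types, natural killer (NK) and plasmacytoid dendritic cell precursors among them, are known to share surface markers with it.

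The series holds 41 single-channel expression arrays of flow-sorted populations from C57BL/6 mice with wild-type Pax5, with no treatment. The groups were common lymphoid progenitors (CLP, 7 arrays) and Hardy fractions A (7 arrays), B (7 arrays), C (5 arrays), D (5 arrays), E (5 arrays) and F (5 arrays). In the Hardy scheme the letters follow development, from the earliest pro-B compartment (A) to small pre-B (D), immature B (E) and mature B cells (F). Strain, genotype, extraction and amplification were common to all groups, so no group carried an allele or agent that the others lacked. The labels give neither the sorting gates, the tissue, nor whether arrays of a group came from separate mice. The p-values therefore rest on the spread among arrays within groups, which may be technical. That spread was pooled over all 7 groups, so the A arrays also enter the tests between C, D, E and F.

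Values are MAS5 signals, brightness values whose trimmed mean is 500 on every array as deposited, and differences are on the log2(signal + 32) scale, which understates the change of dim genes. The median signal of an array ran from 69.1 to 153.1, and a signal at or below this range is close to the level of genes with little RNA. Fraction A was the least uniform group: the correlation of an array with the rest of its group was 0.83 to 0.96 in A and 0.93 to 0.99 elsewhere. A array 4 had the lowest array median (69.1) and a 3′ to 5′ Gapdh signal ratio, a measure of RNA integrity, of 33.8, against 6.40 to 16.7 on the other A arrays. Its summed signal over 13 B lineage commitment genes was 102686, against 11269 to 63563 on the other A arrays and 58188 to 75501 in CLP. Scaling matters for the early comparisons: of all genes called, 31.0% were higher in A than in CLP, 53.8% higher in B than in A, 31.6% higher in B than in CLP and 61.8% higher in C than in B, but 53.4%, 72.1%, 74.7% and 19.3% with each array centred on its median. The median difference of all genes moved with it, from -0.23 to 0.01 for A against CLP and from 0.19 to -0.23 for C against B. In sorted populations of this kind, fewer cells of a type and less RNA per cell cannot be told apart.

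Promoters are shown for 3 of the genes, to give the sequence before the start of genes with a motif of an E protein, an interferon-response or an ETS factor. RefSeq (assembly GRCm38.p6) lists a promoter for 6 of the 7 genes, all but Cd7. Each run is the 250 bases before the annotated start, on the strand of the gene, and capitals mark a motif. The Siglech run lies at chr7:55767934-55768183 on the plus strand and its capitals are CACCTG, the reverse complement of the E-box CAGGTG bound by E proteins such as Tcf4, 20 to 15 bases before the start. The Bst2 run lies at chr8:71537473-71537722 on the minus strand, and its capitals are 2 overlapping matches to the interferon response element (GAAA, any 2 bases, GAAA), 130 to 115 bases before the start. The Klra17 run lies at chr6:129876673-129876922 on the minus strand, and its capitals are 2 matches, 1 per strand, to GAGGAA, a core that ETS factors such as Spib bind.
Siglech promoter: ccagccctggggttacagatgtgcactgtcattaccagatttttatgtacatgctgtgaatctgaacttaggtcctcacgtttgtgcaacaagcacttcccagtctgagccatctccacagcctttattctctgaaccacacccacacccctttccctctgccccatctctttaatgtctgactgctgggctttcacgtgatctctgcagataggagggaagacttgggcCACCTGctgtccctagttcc
Klra17 promoter: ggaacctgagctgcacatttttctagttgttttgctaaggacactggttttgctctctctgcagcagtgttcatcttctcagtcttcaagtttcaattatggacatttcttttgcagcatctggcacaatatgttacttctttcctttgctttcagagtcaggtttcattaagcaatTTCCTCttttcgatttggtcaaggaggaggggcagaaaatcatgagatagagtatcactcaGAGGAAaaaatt
Bst2 promoter: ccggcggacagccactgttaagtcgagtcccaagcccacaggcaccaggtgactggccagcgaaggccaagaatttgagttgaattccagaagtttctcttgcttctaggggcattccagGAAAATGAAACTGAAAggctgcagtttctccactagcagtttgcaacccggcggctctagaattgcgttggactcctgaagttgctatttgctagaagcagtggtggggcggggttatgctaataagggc
Among 32851 mouse promoters of the same length, both strands searched, the interferon response element was found in 2.98%, CAGGTG in 17.2%, GAGGAA in 23.3% and AGGAAG, another ETS core that can overlap GAGGAA, in 29.5%. Of the 6 promoters of the set, 1 held the interferon response element (Bst2), 2 held CAGGTG (Siglech and Bst2), 3 held GAGGAA (Klra17, Cd209d and Lair1) and 2 held AGGAAG (Cd209d and Lair1). The E-box CAGCTG, present in 13.0% of all promoters, was in none of the 6. A match is a description of letters in this window and not evidence of binding.

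**Figure D1:**
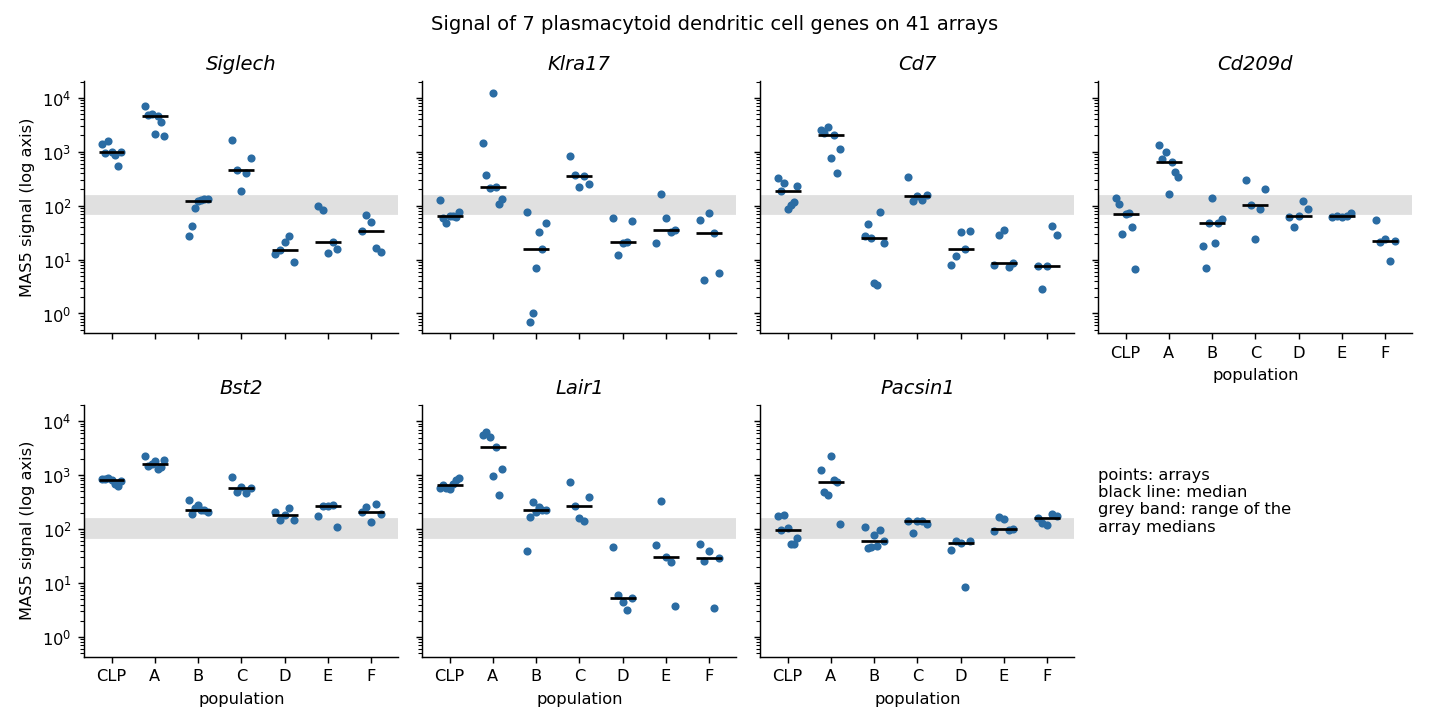
MAS5 signal (log axis) of the 7 genes in CLP and Hardy fractions A to F, each on the probe set with the highest mean. Points are arrays, black lines group medians and the grey band the range of the array medians, 69.1 to 153.1. Siglech, Cd7 and Bst2 are higher on every A array than on any array of another population, and in D to F most genes lie within or below the band.

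Siglech encodes Siglec-H, an endocytic surface receptor that pairs with the adaptor DAP12 and is the most widely used marker of mouse plasmacytoid dendritic cells. Its signal in A ran from 1928.5 to 7144.5 with a median of 4576.5, against 554.3 to 1585.1 with a median of 969.2 in CLP. In B it ran from 27.5 to 131.9 with a median of 121.4. All A arrays lay above all CLP arrays, and all CLP arrays above all B arrays. The log2 difference was 1.89 ± 0.34 (SE, 7 arrays a group) for A against CLP and -5.0 ± 0.34 for B against A. In C the 5 arrays read 1659.9, 454.1, 183.9, 397.5 and 763.3, each above every B array, a log2 difference of 2.25 ± 0.37 from B. The gene was back near the floor in D, at 12.5, 15.1, 21.5, 27.8 and 9.0. In E the arrays read 97.5, 84.6, 13.1, 20.9 and 16, and in F 34.1, 67.5, 49.8, 16.5 and 13.9. None of these 15 arrays reached its own array median.

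Klra17 encodes Ly49Q, a lectin-like receptor for MHC class I that, unlike other Ly49 receptors, is found on plasmacytoid dendritic cells and myeloid cells rather than NK cells. Its 7 A arrays were the most scattered of any gene in the set, from 105.6 to 12532.4 with a median of 219.1, and A arrays 4 (12532.4) and 1 (1464.7) stood above the others, which lay between 105.6 and 376.1. CLP ran from 48.4 to 128.8 with a median of 63.0, and B from 0.7 to 77.0 with a median of 15.4. A and CLP overlapped, and A and B did not. The difference from CLP was 2.37 ± 0.55, and 1.61 without A array 4. Klra17 was the only gene of the set with a higher median in C than in A: the C arrays read 816.2, 374.9, 224.2, 361.1 and 255.9, all above the highest B array, a difference from B of 2.92 ± 0.60. In D the arrays read 59.3, 12, 20, 20.8 and 52.0, in E 19.9, 165.0, 60.2, 32.5 and 34.8, and in F 55.3, 4.1, 72.8, 31.3 and 5.7. Only E array 2 was above its array median among these 15.

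The Ly49 genes are a family of closely related sequences, and cross-hybridisation between them was not tested. Klra7 and Klra8, which encode Ly49 receptors of NK cells, also rose in A over CLP, by 4.72 ± 0.32 (limma, adjusted p = 9.83e-16) and 5.59 ± 0.29 (limma, adjusted p = 5.16e-19). On A array 4, where Klra17 was highest, Klra8 read 4108.3 and Klra7 1608.0, and the highest A arrays of these genes read 4567.9 and 1834.9. In C their means were 200.5 ± 114.5 for Klra8 and 81.9 ± 63.5 for Klra7 (SD, n = 5), against 8.27 ± 4.87 and 4.43 ± 6.15 in B (SD, n = 7). On A array 4 the summed signal of 9 monocyte and macrophage genes was 56104, against 18181 to 40114 on the other A arrays. That of 10 plasmacytoid dendritic cell transcription factors was 58227.5, against 22933 to 40543. The NK and the plasmacytoid dendritic cell surface sums on that array lay within those of the others. The part of these lists in the Klra17 value was not tested.

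Cd209d encodes a C-type lectin of the DC-SIGN family, which binds carbohydrate on pathogens. In A it ran from 161.8 to 1352.0 with a median of 645.5, above every CLP array (6.8 to 137.3, median 69.3) and every B array (7.0 to 139.4, median 46.9). The difference was 2.72 ± 0.36 for A against CLP and -3.03 ± 0.36 for B against A. In CLP and B all but 1 array each were below their array median, so that the size of these differences depends on the 32 added to each signal. In C the arrays read 293.9, 101.0, 24.3, 84.8 and 205.0, which overlapped B (difference 1.03 ± 0.40). D read 61.0, 40.3, 63.8, 123.9 and 88.0, E 62.8, 63.6, 60.3, 65.5 and 72.2, and F 54.8, 21.1, 24.1, 9.6 and 21.8. Every F array was below every E array. The relatives Cd209a, Cd209b, Cd209c, Cd209e, Cd209f and Cd209g did not pass the filter on low signals, and Cd209a, a gene of conventional dendritic cells, had the highest A mean of these, 107.6 ± 109.3 (SD, n = 7).

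Lair1 encodes an inhibitory receptor for collagen found on many immune cells. On its brightest probe set (by mean signal over all arrays) the A arrays ran from 423.2 to 6270.5 with a median of 3404.5, CLP from 543.3 to 883.1 with a median of 670.4, and B from 40.0 to 317.6 with a median of 226.1. A overlapped CLP through A array 6 alone, the lowest of the 7, and every A and CLP array was above every B array. The difference was 1.73 ± 0.45 for A against CLP, and 2.82 without A arrays 4, 6 and 7, the 3 arrays that agreed least with their group. It was -3.42 ± 0.45 for B against A. In C the arrays read 736.5, 264.4, 157.7, 142.9 and 391.4, overlapping B (difference 0.54 ± 0.50), and the difference was 0.22 without C array 1 and 0.28 without B array 1. D read 47.3, 5.9, 4.4, 3.1 and 5.2, E 51.4, 334.7, 30.1, 24.3 and 3.7, and F 53.2, 26.0, 40.1, 3.4 and 28.9. E array 2 stood well above the other 14 arrays of D, E and F. On that array the summed signal of 11 neutrophil granule genes was 103161, against 12601 to 28336 on the other E arrays. That of 9 monocyte and macrophage genes was 25006, against 15384 to 18385.5, and that of 18 interferon-stimulated genes 12368, against 5286 to 6929. The T cell, NK and B lineage sums were also the highest of E there. The sums of conventional dendritic cell genes and of plasmacytoid dendritic cell transcription factors were the lowest. The part of these lists in the Lair1 value was not tested.

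Bst2 encodes tetherin, also known as PDCA-1, an interferon-inducible membrane protein that holds budding virus at the cell surface and is detected on resting mouse plasmacytoid dendritic cells. Its A arrays ran from 1291.2 to 2224.3 with a median of 1580.7, CLP from 639.0 to 875.7 with a median of 814.9, and B from 187.9 to 350.2 with a median of 229.1. The 3 groups were fully separate, with differences of 1.06 ± 0.20 for A against CLP and -2.63 ± 0.20 for B against A. In C the arrays read 915.5, 484.0, 602.7, 462.1 and 570.5, all above B, by 1.18 ± 0.22. Bst2 stayed above the array median later on, on 14 of the 15 arrays of D, E and F, the most of the set, with Pacsin1 next at 7. D read 206.0, 145.5, 181.5, 244.3 and 144.9, E 178.1, 266.0, 263.8, 279.4 and 109.4, and F 205.8, 262.2, 137.2, 295.4 and 191.2.

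Cd7 encodes an immunoglobulin-family surface protein of T, NK and lymphoid precursor cells that is also carried by plasmacytoid dendritic cells. Its A arrays ran from 399.0 to 2887.5 with a median of 2070.1, CLP from 88.3 to 324.3 with a median of 185.8, and B from 3.4 to 76.4 with a median of 25.5. The 3 groups did not overlap, and the differences were 2.84 ± 0.33 for A against CLP, the widest of the set, and -4.68 ± 0.33 for B against A. In C the arrays read 335.8, 120.2, 147.9, 127.6 and 155.6, all above B, by 1.80 ± 0.36. D read 7.9, 11.8, 32.4, 15.5 and 34.0, E 7.9, 28.8, 35.2, 7.2 and 8.7, and F 7.7, 2.8, 7.7, 41.9 and 28.4. None of these 15 arrays reached its array median.

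Pacsin1 encodes a cytoplasmic adaptor that bends membranes in endocytosis, best known in neurons and needed for interferon production by plasmacytoid dendritic cells. On its brighter probe set the A arrays ran from 121.9 to 2310.1 with a median of 732.6, CLP from 52.4 to 184.9 with a median of 97.5, and B from 43.9 to 111.7 with a median of 59.1. A array 7 lay within CLP, and every A array was above every B array. The differences were 2.42 ± 0.33 for A against CLP and -2.81 ± 0.33 for B against A. In C the arrays read 138.7, 86.3, 144.1, 141.0 and 126.9, in D 40.2, 60.9, 54.4, 8.5 and 61.0, in E 94.2, 164.9, 152.0, 96.0 and 98.7, and in F 159.4, 131.8, 119.9, 194.1 and 177.9. On this probe set Pacsin1 was the only gene of the set whose second-highest median was in F (159.4), where every array reached its array median. On the dimmer Pacsin1 probe set the F median was 16.6, below those of A (172.7), C (60.3), CLP (40.2) and B (23.9). There 0 of 5 F arrays were above their array median.

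Ordered by median, A was highest for 6 of the 7 genes, and C was highest for Klra17. CLP came next after A for Siglech, Cd7, Bst2 and Lair1, and for these genes C followed and overlapped CLP. C and the population next below it did not overlap for Siglech, Cd7 or Bst2. Below that, neighbouring populations overlapped for every gene.

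As a whole, the 7 genes were higher in A than in CLP by a median of 2.37 on the log2 scale, from 1.06 to 2.84, where the median over 11951 genes tested was -0.23. For 4 of 7 the arrays did not overlap, where 3.97% of all genes tested had all A arrays above all CLP arrays. In B against A the differences ran from -5.0 to -2.63 with a median of -3.31, the arrays of all 7 were separate, and 3.01% of all genes tested were separate in that direction. In B against CLP the median was -1.57 and the range -3.11 to -0.31, with 4 of 7 separate against 8.37% of all genes. The smallest of these changed sign with scaling: Cd209d was 0.12 with arrays centred on their medians, and Pacsin1 was 0.02 with quantile normalization and 0.04 with centring. In C against B the differences ran from 0.54 to 2.92 with a median of 1.18, and 4 of 7 were separate against 7.64% of all genes. All 7 kept this direction with quantile normalization and with centring, but Lair1 (0.16 and 0.12) and Pacsin1 (0.25 and 0.26) came close to 0. These counts follow from how the genes were chosen, or share the B arrays with that choice, and nothing is read from them. All 7 genes passed the filter on low signals, which asks for 5 arrays at or above the array median. For each gene 6 or 7 A arrays reached it, and so did from 6 (Cd209d) to 33 (Bst2) arrays outside A.

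**Figure D2:**
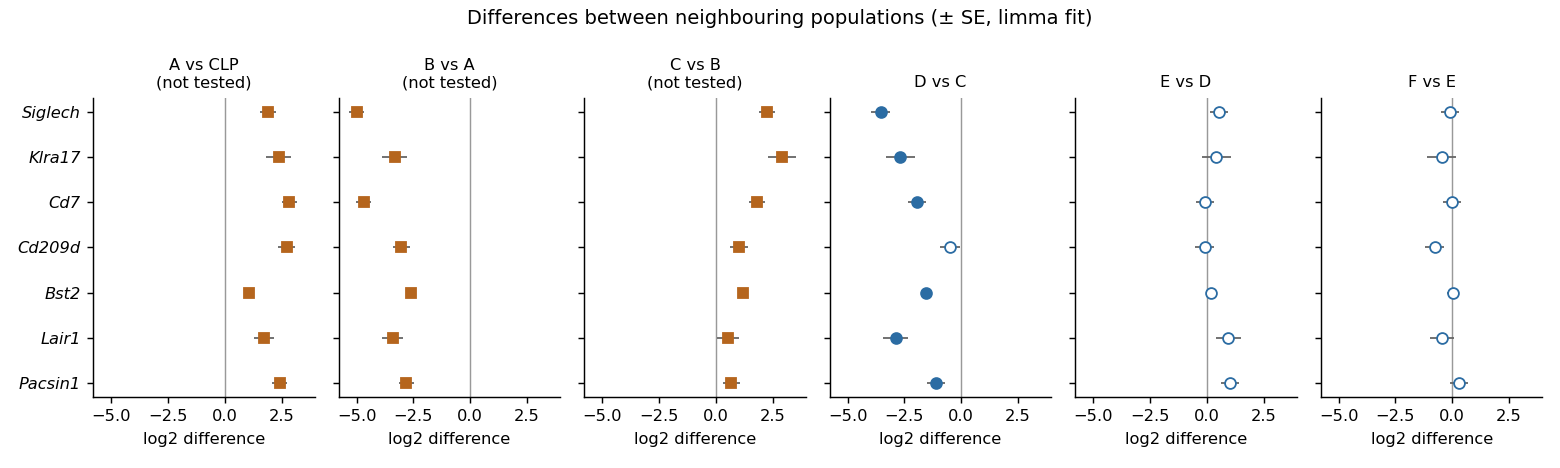
Differences between neighbouring populations on the log2(signal + 32) scale, with the standard error of the limma fit as bars. Brown squares are descriptions with no test; blue circles were tested, filled where the adjusted p was under 0.05 and open where it was not. In D against C 6 of 7 circles are filled and to the left of 0, and in E against D and F against E all are open.

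Fractions D, E and F were compared with limma, and the adjusted p-values are over all 11951 genes tested. From C to D all 7 genes had a negative difference. Of these 6 were called lower at an adjusted p under 0.05, where 13.8% of all genes tested were called lower. Siglech fell by 3.55 ± 0.40 (adjusted p = 1.99e-08), Lair1 by 2.89 ± 0.54 (adjusted p = 1.07e-04) and Klra17 by 2.68 ± 0.65 (adjusted p = 0.00223). Cd7 fell by 1.95 ± 0.39 (adjusted p = 2.96e-04) and Bst2 by 1.54 ± 0.23 (adjusted p = 5.06e-06). For each of these 5 genes every D array was below every C array, as for 17.6% of all genes tested, and the call held when any single C or D array was left out. Pacsin1 fell by 1.10 ± 0.39 (adjusted p = 0.0406), and every D array was also below every C array. Its call was lost without any 1 of C arrays 1, 3, 4 or 5 or D arrays 1, 3 or 4, with adjusted p from 0.0418 to 0.14 over the 10 arrays left out, with a larger pseudocount (adjusted p = 0.156) and with no filter (adjusted p = 0.0562). Cd209d differed by -0.50 ± 0.43 (adjusted p = 0.438), and its C and D arrays overlapped.

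Between D and E none of the 7 genes was called by limma, and 1 had an unadjusted p under 0.05; 8.11% of all genes tested were called. That gene was Pacsin1, 1.03 ± 0.39 higher in E (adjusted p = 0.115), with every E array above every D array, as for 9.36% of all genes tested. It was called with a pseudocount of 1 (adjusted p = 0.0406), and with only D and E in the fit (adjusted p = 0.0123). It was also called when arrays were weighted by quality (adjusted p = 5.40e-04), and without A arrays 4, 6 and 7 (adjusted p = 0.00943). Over the 12 alternatives that gave a value, its adjusted p ran up to 0.362. Lair1 was 0.95 ± 0.54 higher in E (adjusted p = 0.4), and the difference was 0.41 without E array 2. Between E and F none of the 7 was called and none had an unadjusted p under 0.05, where 0.469% of all genes were called. The widest of these differences was that of Cd209d, -0.78 ± 0.43 (adjusted p = 0.898), and its E and F arrays were separate, as for 3.22% of all genes in that direction. The SD of Cd209d on the log2 scale was 0.066 in E and 0.38 in F, but 0.96 in A, and the fit pooled all groups. The lack of calls in E against D and F against E therefore does not show equal levels.

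F against C shares its C arrays with D against C, so that both comparisons read the same 5 C arrays. In it 6 of 7 genes were called lower in F, where 20% of all genes tested were called lower. Siglech fell by 3.13 ± 0.40 (adjusted p = 5.76e-08), Klra17 by 2.73 ± 0.65 (adjusted p = 0.00104) and Lair1 by 2.40 ± 0.54 (adjusted p = 5.09e-04). Cd7 fell by 2.05 ± 0.39 (adjusted p = 6.25e-05), and the Bst2 difference was -1.35 ± 0.23 (adjusted p = 1.60e-05). Cd209d fell by 1.37 ± 0.43 (adjusted p = 0.0116), a call lost without C array 1 (adjusted p = 0.0618). Pacsin1 differed by 0.24 ± 0.39 (adjusted p = 0.677).

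C array 1 read highest among the C arrays for 6 of the 7 genes, all but Pacsin1. On the same array the summed signal of 15 NK genes was 10659, against 2964 to 4282 on the other C arrays, and that of 11 neutrophil granule genes 81363, against 57161 to 68154. That of 9 monocyte and macrophage genes was 22115, against 14599 to 17506. That of 22 plasmacytoid dendritic cell surface and other genes was 33318, against 23977 to 31346. The conventional dendritic cell sum (12803, against 7520 to 12567) and the T cell sum (1130.5, against 808.6 to 1033.2) were also highest there. The summed signal of 18 interferon-stimulated genes was 12155 on C array 1, within the 10357 to 17394 of the others. The sums of the B lineage genes and of the plasmacytoid dendritic cell transcription factors on C array 1 also lay within those of the others. Without C array 1, D against C was -3.16 for Siglech, -2.41 for Klra17, -2.57 for Lair1, -1.72 for Cd7 and -1.39 for Bst2, all with an adjusted p of 0.0115 or less. The part of the signal of these lists in these results was not tested.

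**Figure D3:**
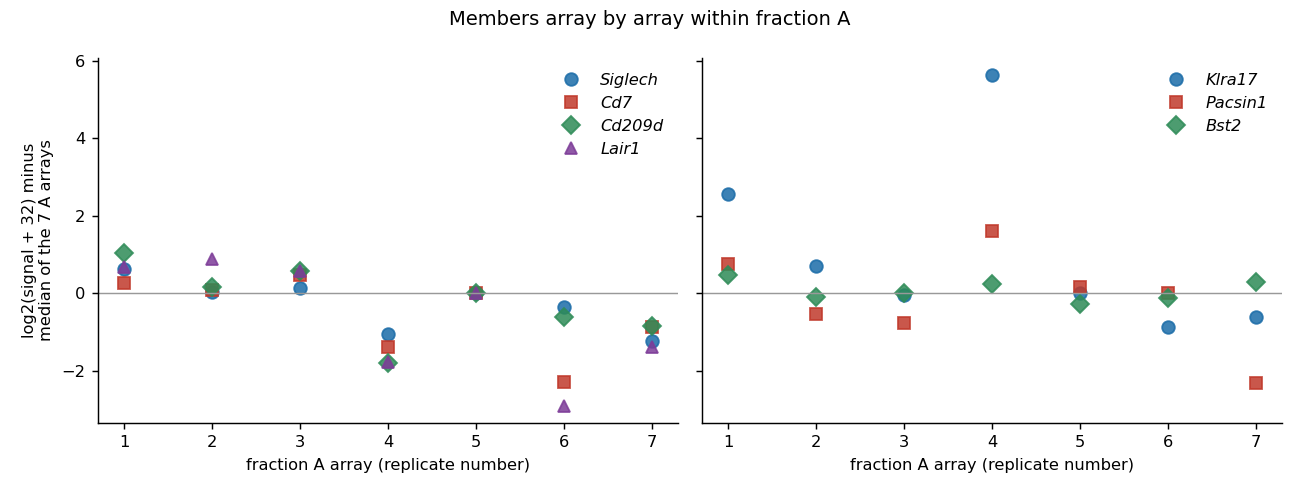
Signal of each gene on the 7 A arrays as log2(signal + 32) minus the median of the 7 arrays, by replicate number, which is only a name. Siglech, Cd7, Cd209d and Lair1 are low on arrays 4, 6 and 7, whereas Klra17 and Pacsin1 are highest on array 4 and Bst2 hardly varies.

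The A arrays did not order the 7 genes alike. Siglech, Cd209d and Bst2 were highest on A array 1, Cd7 on A array 3 and Lair1 on A array 2. Klra17 and Pacsin1 were highest on A array 4, where Siglech and Cd7 ranked sixth of 7 and Cd209d last. Over all 41 arrays the 21 pairs of genes correlated with r from 0.56 to 0.94 (median 0.70), and these arrays share the 7 of A. Within the 7 A arrays the 21 values of r ran from -0.36 to 0.98 (median 0.06), and 9 were below 0. The highest was that of Cd7 with Lair1, r = 0.98, and the lowest that of Klra17 with Cd209d, r = -0.36. These pairs share arrays, and the values are a description.

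In all, 11 measures were set against Siglech within A: the other 6 genes, the NK genes Ncr1 and Gzma, the B lineage factor Ebf1, the plasmacytoid dendritic cell factor Tcf4, and the array median. Since the A arrays took part in the choice of the genes, these values are a description over 7 arrays. Each r is given again without A arrays 4 and 7, the farthest from the Siglech median. Cd209d had r = 0.92 with Siglech, and 0.96 without those arrays. It was 0.86 with quantile normalization and 0.92 with arrays centred on their medians. Lair1 had r = 0.70 and 0.74 without them, and Cd7 had r = 0.64 and 0.74. For these 3 genes r with Siglech was positive with and without those arrays. Klra17 went from r = -0.14 to 0.95 without A arrays 4 and 7, Bst2 from -0.12 to 0.84 and Pacsin1 from 0.24 to 0.45. Gzma, the granzyme A gene of NK cells, had r = -0.74, and -0.80 without those arrays, but 0.58 with quantile normalization. Ncr1 had r = 0.20 and 0.33. For the remaining measures the value rested on A arrays 4 and 7: Ebf1 went from -0.67 to 0.16, Tcf4 from -0.06 to 0.98 and the array median from 0.28 to -0.90. The part of the array median in these relations was not tested.

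**Figure D4:**
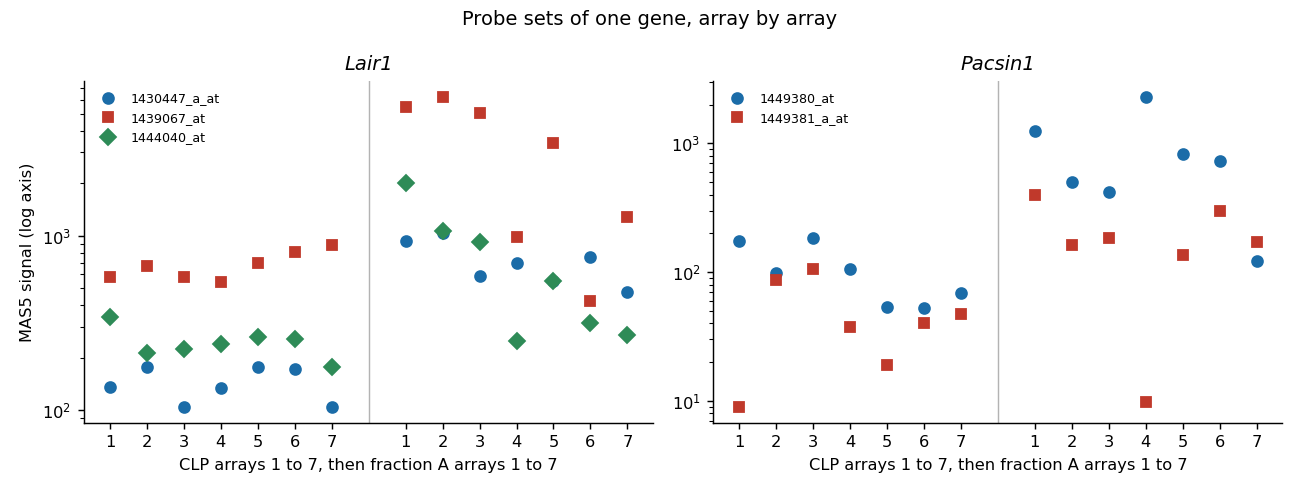
MAS5 signal (log axis) of the 3 Lair1 and the 2 Pacsin1 probe sets on CLP arrays 1 to 7 and A arrays 1 to 7. Each symbol is one probe set. On A array 4 the Pacsin1 probe sets part, at 2310.1 and 9.7.

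Lair1 and Pacsin1 had several probe sets, and levels were compared only within each. The Lair1 probe set with an _a_at suffix, which detects several transcripts of 1 gene, was 476.5 to 1030.5 in A and 103.7 to 176.2 in CLP, with no overlap. The remaining Lair1 probe set was 248.3 to 1991.7 in A and 175.7 to 340.1 in CLP, with overlap. The A against CLP differences of these were 2.08 ± 0.25 and 1.19 ± 0.34, beside 1.73 ± 0.45 for the brightest. The difference was positive on all 3 Lair1 probe sets. In C against B they differed by 0.96 ± 0.27 and 1.78 ± 0.37, beside 0.54 ± 0.49 for the brightest. From C to D all 3 fell in a limma fit of 23052 probe sets, with a difference of -1.37 ± 0.29 (adjusted p = 7.29e-04) for the _a_at probe set. It was -1.66 ± 0.40 (adjusted p = 0.00256) for the remaining one and -2.89 ± 0.53 (adjusted p = 1.08e-04) for the brightest. Within A the _a_at and the brightest probe set correlated with r = 0.29, and the brightest and the remaining one with r = 0.86.

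The dimmer Pacsin1 probe set was 9.7 to 396.3 in A and 8.9 to 106.1 in CLP. A array 4 was the highest of the 7 A arrays on the brighter probe set and the lowest on the dimmer one, and r between them within A was -0.39. They differed on the later fractions too: E against D was 1.03 ± 0.39 on the brighter and -0.07 ± 0.39 on the dimmer, and this difference between probe sets was not tested. From C to D the dimmer one differed by -0.90 ± 0.39 (limma, adjusted p = 0.0953), which did not pass. F against C was 0.24 on the brighter Pacsin1 probe set, -0.57 ± 0.39 on the dimmer one (limma, adjusted p = 0.28) and -0.16 on the mean of both.

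Within the set, r with Siglech over the 41 arrays was 0.94 for Bst2, 0.93 for Lair1, 0.91 for Cd7, 0.73 for Cd209d, 0.64 for Pacsin1 and 0.64 for Klra17. Outside the set, the genes whose pattern was most like that of Siglech were Thy1 (r = 0.96), Ppm1h (r = 0.95), Fyb (r = 0.95), Tex2 (r = 0.94), Osbpl3 (r = 0.93), Itgax (r = 0.93), Ifnar2 (r = 0.93), Ctla2b (r = 0.93), Sema4c (r = 0.92) and Sema4a (r = 0.92). Thy1, a surface protein of T cells and many early lymphoid cells, had a median of 1416.2 in CLP, 3868.5 in A and 124.0 in B. Itgax, which encodes the dendritic cell integrin CD11c, had medians of 236.3, 2869.4 and 31.9. Within the 7 A arrays r with Siglech was 0.21 for Thy1, 0.03 for Itgax, -0.14 for Sema4a, 0.84 for Ctla2b and 0.83 for Sema4c.

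For Bst2 and Lair1, r with Siglech was higher than with any gene outside the set. For Cd7, Cd209d, Klra17 and Pacsin1 it was lower than with each of the outside genes named here. The genes of the set were chosen for a shared rise in A and fall in B, so high r among them follows from that choice. Outside the set, the genes most like Bst2 were Itgax (r = 0.93), Thy1 (r = 0.93) and Ddr1 (r = 0.92), and for Lair1 they were Fxyd5 (r = 0.92), Osbpl3 (r = 0.92) and Fyb (r = 0.92). Cd7 was most like AW112010 (r = 0.97), Klrd1 (r = 0.95) and Ctsw (r = 0.94). Klrd1 encodes CD94 of the NK receptor family, and Ctsw a cathepsin of cytotoxic cells. Cd209d was most like Ncr1 (r = 0.86), the NKp46 receptor gene, Gzmb (r = 0.85), which encodes granzyme B, and Ctsl (r = 0.85), a lysosomal protease gene. Klra17 was most like Tnfrsf9 (r = 0.81), Srgap3 (r = 0.77) and Zfp276 (r = 0.77), and Pacsin1 most like Tnfrsf9 (r = 0.85), Serpinb9b (r = 0.85) and Aoah (r = 0.84). All these values, within and outside the set, are over arrays that share the 7 A libraries and carry no test.

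Other genes known in plasmacytoid dendritic cells were read from 3 lists of 51 genes, of which 41 were tested. Here and for the lists below, counts and shares of genes that rose or fell are those called by limma at an adjusted p under 0.05. Between CLP and A 13 of the 41 rose and 3 fell, with a median difference of 0.39 beside -0.23 over all genes; 11.5% of all genes tested rose and 25.6% fell. Without A arrays 4, 6 and 7, 20 rose and 1 fell. From A to B 26 fell and 4 rose, with a median of -0.99, where 14.5% of all genes fell and 16.9% rose. Between CLP and B 18 fell and 5 rose, where 19.1% and 8.81% of all genes did. From B to C 13 rose and 1 fell (14.2% and 8.75% of all genes), and with arrays centred on their medians 6 rose and 3 fell. From C to D 7 fell and 3 rose, where 13.8% of all genes fell and 7.51% rose.

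Of the 10 transcription factors tested, Irf8 rose in A over CLP by 1.17 ± 0.25 (limma, adjusted p = 2.25e-04), Zeb2 by 0.93 ± 0.25 (limma, adjusted p = 0.00372) and Tcf4 by 0.81 ± 0.15 (limma, adjusted p = 4.11e-05). Id3, an inhibitor of E proteins that restrains the lineage, fell by 0.79 ± 0.23 (limma, adjusted p = 0.00671), and Bcl11a fell by 0.66 ± 0.23 (limma, adjusted p = 0.0184). Spib differed by 0.50 ± 0.23 (limma, adjusted p = 0.084). From A to B Irf8 fell by 2.81 ± 0.25, Tcf4 fell by 0.99 ± 0.15 and Id3 rose by 1.69 ± 0.23. Tcf4 remained high outside A, with means of 4465 ± 505 in CLP, 8027 ± 2041 in A and 4083 ± 1110 in B (SD, n = 7). Spib, also a factor of B cells, was highest in E, at 6164 ± 825 (SD, n = 5), and 961 ± 262 in A (SD, n = 7).

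Of the 9 sensing and interferon genes tested, Pld4, an endolysosomal nuclease that limits Toll-like receptor signals, rose in A by 2.50 ± 0.21 (limma, adjusted p = 1.96e-12), and none fell. The nucleic acid receptors Tlr7 (0.36 ± 0.30) and Tlr9 (0.39 ± 0.23) and their chaperone Unc93b1 (0.40 ± 0.36) did not pass. Tlr9 in A was 163.5 ± 99.4 and Unc93b1 145.8 ± 47.2 (SD, n = 7), near the array medians. From A to B Tlr7 fell by 1.49 ± 0.30 and Tlr9 by 1.08 ± 0.23.

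Of 22 surface and other genes tested, 9 rose in A and 1 fell. Havcr1, which encodes TIM-1, rose by 3.34 ± 0.37 (limma, adjusted p = 2.43e-09), Upb1, a pyrimidine-degrading enzyme gene, by 3.16 ± 0.27 (limma, adjusted p = 2.06e-12), and the lectin gene Clec10a by 2.71 ± 0.30 (limma, adjusted p = 2.15e-09). The gene that fell was Itgae, by 1.24. Ccr9, the gut-homing receptor of the lineage, differed by -0.59 ± 0.45 (limma, adjusted p = 0.311), Ly6d by -0.33 ± 0.22 and Cox6a2 by 0.39 ± 0.22. Ccr9 in A ran from 109.8 to 3113.8 with a median of 1643.5, and in CLP from 804.9 to 2890.7 with a median of 1037.0. From A to B 18 of the 22 fell and none rose, among them Havcr1 (-5.44 ± 0.37), Upb1 (-4.03 ± 0.27), Clec10a (-3.89 ± 0.30), Ccr9 (-3.23 ± 0.45) and Cox6a2 (-2.41 ± 0.22). In C over B, Havcr1 rose by 2.36 ± 0.41, the phagocyte oxidase gene Cybb by 2.24 ± 0.43 and Clec10a by 1.78 ± 0.33.

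**Figure D5:**
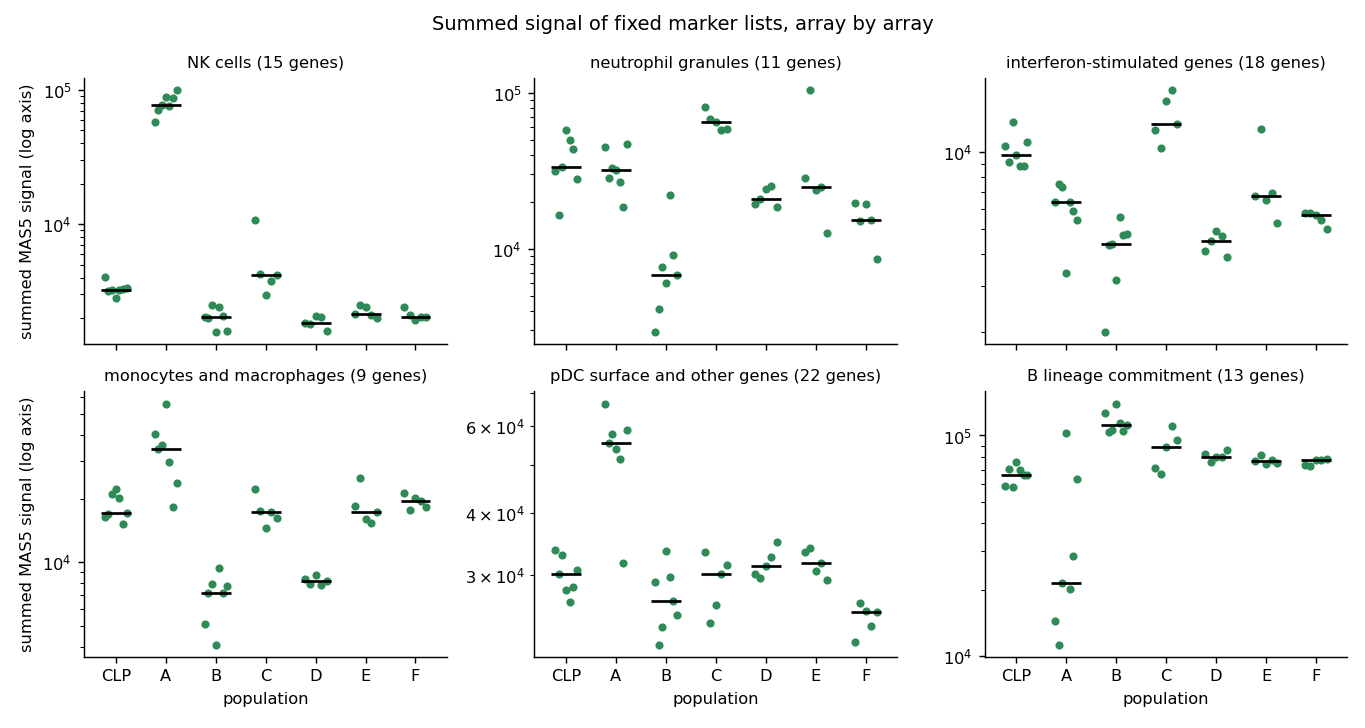
Summed MAS5 signal (log axis) of 6 gene lists on every array. Points are arrays and black lines group medians. The NK list is 57928 to 99284 in A and at most 10659 elsewhere, and the neutrophil list is 57161 to 81363 in C and 103161 on E array 2.

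Of the lists of other cell types, the NK list had the largest median difference between CLP and A. Of 15 NK genes 14 rose in A over CLP, with a median of 4.22, and 14 fell from A to B, where 11.5% of all genes rose and 14.5% fell. The summed NK signal was 2829 to 4007 in CLP, 57928 to 99284 in A, 1578 to 2505 in B, 2964 to 10659 in C and 1586 to 2066 in D. Gzma, granzyme A, had a median of 100 in CLP, 23873 in A, 302.2 in B and 914.9 in C. Gzmb, granzyme B, ran from 4.5 to 1065.3 in A with a median of 860.4, and Prf1, perforin, from 473.4 to 1860.6. Of 10 conventional dendritic cell genes 3 rose and 1 fell in A, with Itgax highest (3.35 ± 0.28), and of 9 monocyte and macrophage genes 5 rose and 1, Lyz2, fell (-2.16 ± 0.41). Other lists did not rise: of 13 B lineage genes 9 fell and 1 rose in A, of 9 T cell genes 5 fell and none rose, and of 11 neutrophil granule genes 7 fell and none rose. The part of these cell types in the A values of the 7 genes was not tested.

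In C over B, all 11 neutrophil granule genes rose, with a median of 3.21, and the antimicrobial peptide gene Camp had a median of 4804.9 in C and 87.0 in B. Of 18 interferon-stimulated genes 17 rose, with a median of 1.46, with Rsad2 highest (4.40 ± 0.66). Of 15 NK genes 10 rose, of 10 conventional dendritic cell genes 7 rose and 1 fell, and of 9 monocyte and macrophage genes 3 rose. The conventional dendritic cell list holds MHC class II genes and is not particular to dendritic cells here. Its summed signal was highest in F, at 35127 to 40507, against 13796 to 19262 in A and 7520 to 12803 in C. Of 9 T cell genes and of 13 B lineage genes 1 each rose. Of all genes tested, 14.2% rose and 8.75% fell from B to C. The summed interferon-stimulated signal was 1998 to 5588 in B, 10357 to 17394 in C and 3921 to 4949 in D. From C to D 9 of 11 neutrophil genes, 11 of 18 interferon-stimulated genes, 12 of 15 NK genes and 5 of 9 monocyte genes fell, where 13.8% of all genes fell. So did 4 of 10 conventional dendritic cell genes, 1 of 9 T cell genes and 2 of 13 B lineage genes, while 2 B lineage genes and 1 NK gene rose. Bst2 is itself interferon-inducible. In A against CLP, where Bst2 was higher, 3 of the 18 interferon-stimulated genes rose and 8 fell, with a median of -0.75. Of all genes tested, 11.5% rose and 25.6% fell in that comparison, with a median of -0.23. The part of interferon in the A values of Bst2 was not tested. The part of these lists in the C values of Siglech, Klra17, Cd7, Bst2 and the others was not tested.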

How the data were processed

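The data are 41 Affymetrix mouse arrays of B cell precursor populations; the total RNA was PicoPure-extracted, amplified with the Ovation Pico kit and biotin-labelled, per the labels' protocols. The values analysed are the intensity (MAS5 signal) of 45101 probe sets that the authors deposited in the series matrix, made with MAS5 (version not given), per the submitters' processing notes. Their trimmed mean (2% off each end) was 500 on every array. For the genome build, no source used here gives one, and scanner files were not analysed here. The limited number of arrays bounds the precision.

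Probe sets were named from the platform annotation: 34945 had 1 gene symbol, 932 several, and 9211 were not listed. Of 18193 genes, 11951 reached the array median on at least 5 arrays, and each was read from the probe set with the highest mean. Differences were fitted on log2(signal + 32) with limma 3.58.1 (lmFit, then eBayes, trended and robust) under R 4.3.3; the model held 7 group means over 41 arrays, and p-values were adjusted by Benjamini-Hochberg over all genes tested at a threshold of 0.05. The fit was tested on simulated data. Correlations within A are printed as a description: permutation p-values were planned, and are left out because the genes were chosen on these arrays.

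The 7 genes, the other lists and the tests were chosen with earlier results of these data known. Named genes are the 7 with all their probe sets, the 10 genes outside the set most like Siglech and 3 most like each other member by r, the first 3 tested genes of each list, up to 3 called genes of a list with the largest difference, and relatives of the 7. Single genes named beyond this rule, such as Itgae, were chosen after their values were seen. Alternatives covered the pseudocount, filter, scaling, probe sets, replicate block, arrays in the fit, array weights and leaving out arrays. No 2 arrays held identical values.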

Additional observations from a re-analysis of the deposited data

Results flagged for a closer look

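In 5 groups the gap between 1 array and its nearest neighbour was wide for the range of the group, by Dixon's test at the 95% level. Chance flags about 1 in 20 groups, which is 2.45 of the 49 groups of 4 to 10 arrays examined, and 5 were found.

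Klra17 in CLP was highest on array 1, at 128.8, above the other 6 CLP arrays at 48.4 to 75.2. Cd7 in C was highest on array 1, at 335.8, above 120.2 to 155.6 on the other C arrays. Lair1 in B was lowest on array 1, at 40.0, below 165.5 to 317.6, and in D it was highest on array 1, at 47.3, above 3.1 to 5.9. Pacsin1 in C was lowest on array 2, at 86.3, below 126.9 to 144.1.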

How the results depend on the processing

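Of 413 summary values recomputed under the alternatives, 390 were labelled as kept, and so were 1322 of 1395 values of single genes. A count was kept within a fixed ratio of the main count, such as 17 against 13 listed genes called higher in C than B with the mean of probe sets. An untested difference was kept if its sign held and it moved less than the spread among arrays. A tested gene was kept if its direction and side of the threshold held. Some settings, such as eBayes without trend, cannot change a difference, so these totals overstate robustness. Of the 7 genes, 1 was called in E against D with a pseudocount of 1, with only the 2 groups compared, with array weights and without A arrays 4, 6 and 7, where the main count was 0. The median difference of the 7 genes in B against A was -2.27 when the larger pseudocount was added, and -4.05 under a filter at the 75th percentile, which left 4 of them. The following counts are of called genes. Of the other plasmacytoid dendritic cell genes, 17 were called lower in B than A and 10 lower in B than CLP with that filter. With quantile normalization 3 were higher and 11 lower in B than CLP, and 0 lower in C than B. With median centring 0 were lower in A than CLP, 9 lower in B than CLP, and 6 higher and 3 lower in C than B. With only the 2 groups, 1 was lower in A than CLP and 1 higher in B than A. With array weights 21 were higher in A than CLP and 2 lower in C than B, and without A arrays 4, 6 and 7, 20 were higher and 1 lower in A than CLP, 2 higher in B than A and 2 lower in C than B.

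Sign changes were confined, among the settings run, to small differences and to correlations within A. Bst2 in F against E was -0.019 (quantile), -0.0040 (median centring) and -0.011 (array weights). In B against CLP, Pacsin1 was 0.024 (quantile) and 0.037 (median centring) and Cd209d 0.12 (median centring). Pacsin1 in F against C was -0.16 on the mean of its probe sets. With Siglech, r was 0.58 for Gzma and 0.55 for Tcf4 (quantile), and 0.14 for Klra17, 0.16 for Bst2, 0.23 for Tcf4 and -0.12 for the array median (median centring). The cause was not tested.

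With 1 array left out at a time, 5 to 6 of the 7 genes were called in D against C and in F against C, and 0 in E against D and F against E. In E against D, Cd209d ran from -0.23 to 0.046 and Cd7 from -0.21 to 0.0034. In F against E, Bst2 ran from -0.18 to 0.15, Siglech from -0.27 to 0.11, Cd7 from -0.18 to 0.10 and Lair1 from -0.76 to 0.075. Taken over all groups, replicate numbers showed no general pairing: 9 of 105 same-number pairs correlated above 0.1 (range -0.25 to 0.22). Among D, E and F all 15 such pairs were positive (0.037 to 0.13), and the own number was the best match for 4 of 5 (D with E), 5 of 5 (D with F) and 4 of 5 (E with F), a hint from the data and not the design. With the replicate number as a block, 6 genes were called in D against C, 6 in F against C and 0 in E against D and F against E, and no call changed. That block was shared by all groups, so it cannot settle a pairing within D, E and F, and a block within these alone was not fitted. Leaving out A arrays 4, 6 and 7 was chosen with earlier results of these arrays known. Signals near the array median limit what D, E and F can show.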
